A study of Mus musculus with 24 samples.

Results

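RAW 264.7, an established mouse macrophage-like cell line, was compared with itself at 5 h and at 1 h of lipopolysaccharide (LPS), in the derivative that carries a doxycycline-inducible GFP construct and served as the control. The comparison used the 4 libraries of the GFP line at 5 h and its 4 libraries at 1 h, 8 of the 24 libraries of the series, and the 4 libraries of the same line at 0 h gave the level before LPS. All GFP-line cells, those at 0 h included, had received doxycycline at 50 ng/ml for 18 h, and LPS was given at 500 ng/ml. The other 12 libraries came from a sister line with inducible Nur77, the protein of Nr4a1, at the same times and doses. Each construct was carried by 1 stable line. Nothing in the labels ties the replicates to different cultures, and the p-values therefore reflect spread among libraries that may be technical. The question was which genes fell back from a peak at 1 h and which rose only after it. Genes were represented by their transcript with the highest mean count, and 12114 of 25160 genes passed the filter on low counts.

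LPS is sensed by the receptor Tlr4, which signals through MAP kinases and NF-kB. Both act on transcription factors that are already in the cell, so a first set of genes, the immediate early and primary response genes, can be transcribed without new protein synthesis. Many of their products are short-lived and include brakes on the same pathways. A later set needs proteins made in the first phase, or the type I interferon that macrophages release, which acts through Jak kinases, Stat2 and Irf9 on genes with an interferon-stimulated response element (ISRE) in their promoters.

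Between 1 h and 5 h the transcriptome moved in both directions. By edgeR's quasi-likelihood test, 7180 of the 12114 genes (59.3%) were called at a Benjamini-Hochberg adjusted p under 0.05, 3451 higher (28.5%) and 3729 lower (30.8%) at 5 h. At a log2 fold change of at least 1, 789 were called higher (6.51%) and 750 lower (6.19%). The median log2 fold change over all genes was -0.01. By the first hour 320 genes (2.64%) had risen by at least that much over 0 h, and 129 (1.06%) had fallen as far. Of these 320 genes, 51 fell back by 5 h by a log2 fold change of at least 1, 115 rose by as much again, and 154 held between those bounds. Another 408 genes rose only after 1 h, meaning that they were at least 1 log2 unit higher at 5 h than at both earlier times and were not called higher at 1 h. A further 525 fell only after 1 h by the mirrored rule, and 29 dipped at 1 h and recovered. The comparisons of 5 h with 1 h and of 1 h with 0 h share the 1 h libraries, so the sizes of these classes are counts fixed by the rules and carry no test.

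**Figure D1:**
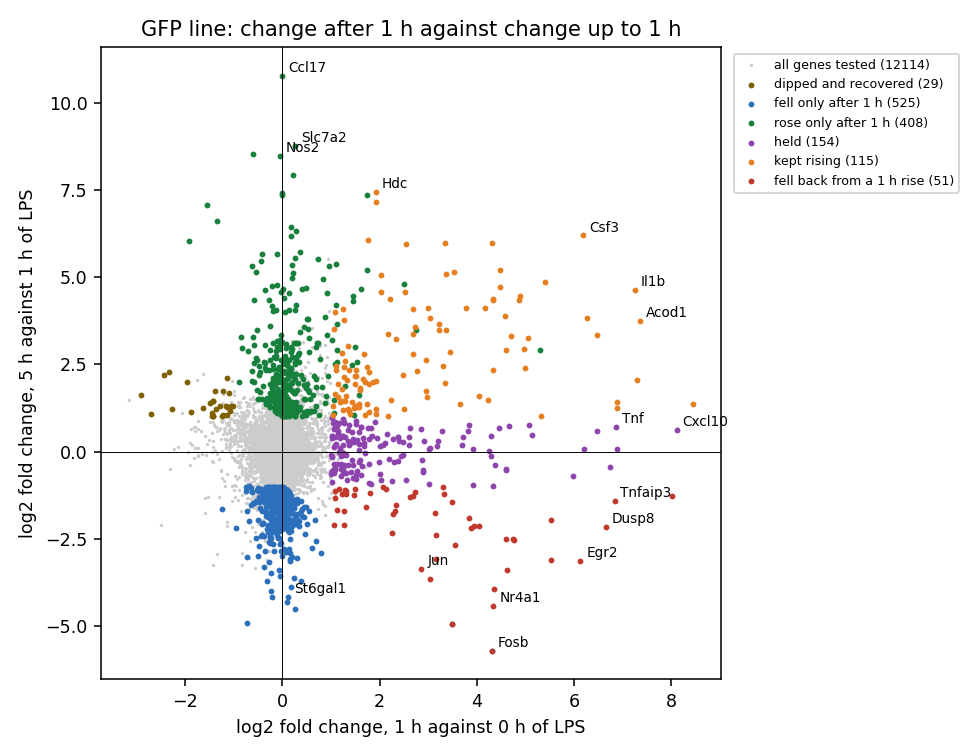
Each point is 1 of the 12114 genes tested in the GFP line; the horizontal axis is the log2 fold change of 1 h against 0 h and the vertical axis that of 5 h against 1 h, with the classes in colour. The 51 genes that fell back lie at the lower right (Fosb at -5.71 on the vertical axis), and the 408 that rose only after 1 h form the upper column near 0 on the horizontal axis (Nos2 at 8.47); both axes use the same 1 h libraries.

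The genes that fell back were led by immediate early transcription factors. Of 26 tested members of that list, 21 were called lower at 5 h than at 1 h and 4 higher, against 30.8% and 28.5% of all genes tested. The median log2 fold change of the list was -1.06. Of its members, 11 were in the class that fell back and 9 in the class that held, against 0.421% and 1.27% of all genes. Fosb, a partner of Jun in the AP-1 factor, had the largest fall of the class. It stood at 11.5, 15.2, 12.4 and 13.7 CPM (counts scaled to library size with TMM factors) in replicates 1 to 4 at 1 h and at 0.22, 0.35, 0.27 and 0.07 CPM at 5 h. The log2 fold change was -5.71 ± 0.23 (SE, adjusted p = 4.75e-13, edgeR), and the 5 h mean of 0.23 CPM lay under the 0 h mean of 0.66 CPM (adjusted p = 0.00397 by edgeR). Fosb thus also met the rule for genes that fell only after 1 h, as did Arc, best known as a neuronal activity gene; the classes share these 2 genes.

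Nr4a1, at chr15:101253902-101274795 in GRCm38, encodes the orphan nuclear receptor Nur77. Its levels at 1 h were 52.1, 63.7, 65.0 and 66.9 CPM, and those at 5 h were 3.10, 3.08, 3.07 and 2.07 CPM. At 0 h it had stood at 3.03 ± 0.39 CPM (SD, n = 4), so the 20.2-fold rise was followed by a 21.5-fold fall (log2 -4.43 ± 0.11, adjusted p = 7.36e-16, edgeR) to a level not called different from 0 h (adjusted p = 0.63 by edgeR). The 2 other members of the receptor family did not follow it. Nr4a2 was at 5.88 ± 0.44 CPM at 1 h and fell by 0.64 on the log2 scale without a called rise before. Nr4a3 kept rising, from 0.22 CPM at 0 h to 2.33 CPM at 1 h and 17.1 ± 2.0 CPM at 5 h.

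Jun, the AP-1 subunit, reached 417, 443, 456 and 463 CPM at 1 h and then 42.2, 41.9, 43.8 and 44.0 CPM at 5 h, a log2 fold change of -3.37 ± 0.06 (adjusted p = 5.7e-18 by edgeR). All 4 values at 5 h lay below the lowest at 0 h, 58.5 CPM. The zinc finger factor Egr1 was the most abundant of the transcription factors named here at 1 h, at 951 ± 6 CPM, and stood at 181 ± 7 CPM at 5 h, still above its 0 h mean of 106 CPM. Egr2 went from 2.24 CPM at 0 h to between 153 and 163 CPM at 1 h and between 17.1 and 19.2 CPM at 5 h. Egr3 went from 28 ± 4 CPM at 1 h to 2.20 ± 0.60 CPM at 5 h. The 3 Egr genes therefore ended above, above and below their starting levels, each called against 0 h by edgeR (adjusted p of 4.47e-09, 1.28e-14 and 0.0211). Csrnp1, a nuclear protein, went from 203 ± 8 to 35.4 ± 0.4 CPM, and Btg2, an antiproliferative cofactor of the mRNA deadenylase complex, from 129 ± 3 to 15.2 ± 1.6 CPM. Fos itself had risen by only 0.62 on the log2 scale at 1 h, from 18.2 to 28 CPM, and fell by 2.77 after it, so that it belongs with the genes that fell only after 1 h.

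**Figure D2:**
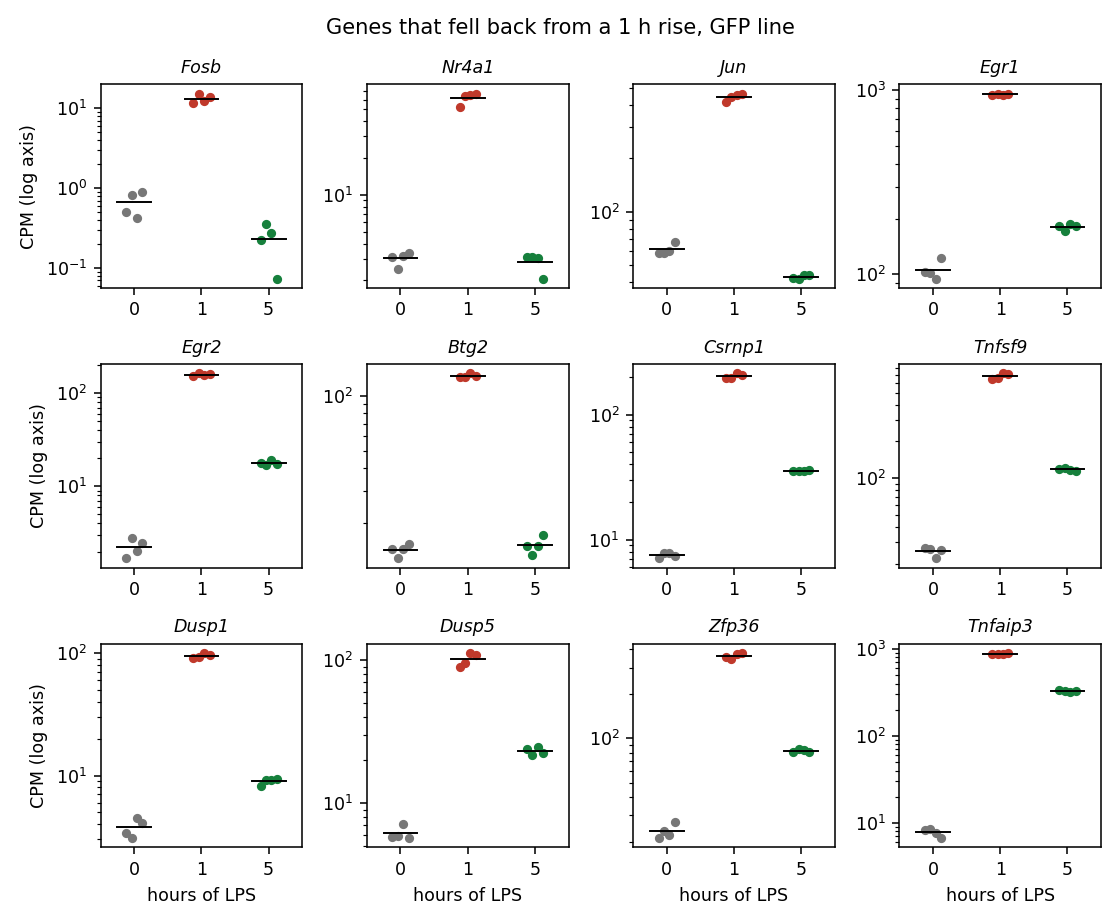
Points are the CPM of each of the 4 GFP-line libraries at 0, 1 and 5 h of LPS on log axes, and bars are group means, for 12 genes that fell back. In every panel the 4 libraries at 1 h lie above all libraries at 5 h, but such separation was a condition for choosing many of the named genes. Over all 12114 genes tested, the libraries of these times did not overlap for 6809. Nr4a1 and Btg2 end near their 0 h level, Jun and Fosb below it, and Tnfaip3 and Zfp36 well above it.

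Phosphatases that switch off MAP kinases made up a further part of the class. Of 27 tested members of the list of MAP kinase phosphatases and signal brakes, 13 were called higher at 5 h and 12 lower. Over all genes tested, the shares were 28.5% and 30.8%. The list had a median log2 fold change of 0.08, and 5 members fell back, against 0.421% of all genes. Dusp1, which dephosphorylates p38 and JNK, stood at 90.9, 92.7, 100 and 97.3 CPM at 1 h and at 8.20, 9.16, 9.22 and 9.30 CPM at 5 h (log2 -3.41 ± 0.08, adjusted p = 2.01e-16, edgeR). Dusp2 went from 51.7 ± 2.0 to 8.07 ± 0.46 CPM and Dusp5 from 102 ± 11 to 23.3 ± 1.3 CPM. Dusp8, at 0.25 CPM before LPS, reached 25.8 ± 1.6 CPM and kept 5.83 ± 0.72 CPM at 5 h. All 4 stayed above 0 h by edgeR.

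The promoters of Dusp1 and Btg2 and those of Egr2 and Zfp36 are shown because each holds a full cyclic AMP response element or CArG box, the sites that CREB family factors and serum response factor are known to bind. The windows are stretches of 90 bases around the match, taken from the 250 bases upstream of the start in the RefSeq promoter table for GRCm38.p6 and written 5′ to 3′ on the gene's strand, with the match in capitals. The first pair was matched to TGACGTCA and the second pair to the CArG box. For Egr2 the gene as annotated begins further upstream, at 67534469 on chromosome 10, so its window is a promoter of 1 of several starts.
Dusp1 promoter, chr17:26508567-26508656, minus strand: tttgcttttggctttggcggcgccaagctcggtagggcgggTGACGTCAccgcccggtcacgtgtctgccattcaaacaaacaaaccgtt
Btg2 promoter, chr1:134079273-134079362, minus strand: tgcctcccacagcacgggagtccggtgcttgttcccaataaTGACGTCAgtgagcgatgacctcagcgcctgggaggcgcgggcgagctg
Egr2 promoter, chr10:67537757-67537846, plus strand: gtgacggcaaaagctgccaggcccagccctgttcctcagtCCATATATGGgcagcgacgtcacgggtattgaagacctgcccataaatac
Zfp36 promoter, chr7:28379237-28379326, minus strand: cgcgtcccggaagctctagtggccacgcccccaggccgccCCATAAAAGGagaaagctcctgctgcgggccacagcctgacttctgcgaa
Over the 250 bases upstream of all 9643 tested genes with a promoter in the RefSeq table, searched on both strands, 2.85% held TGACGTCA and 0.985% the CArG box; neither motif can overlap the other. Only 35 of the 51 genes that fell back had an entry, under the 80% needed, so the check of motif shares over that class is void and no share is given. A match is a description of the letters and was not tested for binding here.

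Of 26 tested genes for NF-kB subunits and feedback inhibitors, 3 fell back, 9 held and 6 kept rising. Of 16 tested mRNA decay regulators, 1 fell back and 3 held. Over all genes tested, 0.421% fell back, 1.27% held and 0.949% kept rising. Tnfaip3, which encodes the ubiquitin-editing enzyme A20, rose from 7.79 CPM to 865, 879, 877 and 895 CPM at 1 h, and at 5 h it was at 335, 328, 322 and 332 CPM. The fall was 1.42 on the log2 scale (SE 0.05, adjusted p = 6.35e-14, edgeR), and the 5 h level stayed 5.42 log2 units above 0 h. Zfp36, tristetraprolin, which binds AU-rich elements and speeds the decay of cytokine messages, was at 354, 346, 373 and 377 CPM at 1 h and at 80.9, 84.0, 83.6 and 81.0 CPM at 5 h. Zc3h12a, the endonuclease Regnase-1, did not fall: it held, at 166 ± 10 CPM at 1 h and 278 ± 9 CPM at 5 h. Of the 26 NF-kB genes, 15 were called higher at 5 h than at 1 h and 8 lower (28.5% and 30.8% over all genes tested). The subunit genes Nfkb1 and Nfkb2 were among the higher ones, at 144 ± 7 and 855 ± 27 CPM for Nfkb1 and at 108 ± 6 and 451 ± 19 CPM for Nfkb2.

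A few members of other families shared the pattern. Tnfsf9, the ligand of the costimulatory receptor 4-1BB, went from 25.3 CPM to 651, 658, 721 and 714 CPM at 1 h and back to 120, 121, 117 and 115 CPM. It was the 1 gene called lower among 20 tested TNF and interleukin genes, of which 18 were called higher. Bcl2l11, the pro-apoptotic Bim, rose from 45.3 to 216 ± 15 CPM and returned to 43.2 ± 1.9 CPM, not called different from 0 h (adjusted p = 0.36 by edgeR). Bcl6, a transcriptional repressor, went from 51.3 CPM to 124 ± 2 CPM and then to 28.8 ± 2.8 CPM, below its start. Gem, a small GTPase of the RGK family, was at 0.55, 24.7 and 2.92 CPM at the 3 times.

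At 5 h, 30 of the 51 genes were still called above 0 h, 14 were not called different from it and 7 were below it (31.6% and 34.6% of all genes were called above and below 0 h). The median gain by 1 h was 3.03 log2 units. Taken for each gene as a share of its own log2 gain, the loss by 5 h had a median of 73.8%. Of the 51 genes, 40 lost at least 50% of their gain and 12 lost all. These values describe the class and, since the class was defined by the fall, are not a test of it. Just inside the threshold on the fall lay Skil at -1.03 and Ppp1r15a at -1.01, the latter a phosphatase subunit that ends the integrated stress response. Just outside lay Cdk5r1 at -0.99, Irf1 at -0.97, Sowahc at -0.94 and Fosl2 at -0.93, named here for their closeness to the threshold. With the threshold at a log2 fold change of 2, 20 genes fell back.

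Genes of the 1 h response that held included several inflammatory mediators. Of the 154 genes, 67 were called higher at 5 h by less than the threshold, 49 lower and 38 not called. Tnf, at 21.9 ± 3.9 CPM before LPS, was at 2360, 2440, 2660 and 2640 CPM at 1 h and at 4060, 4030, 4170 and 4160 CPM at 5 h. Most of its rise on the log2 scale, 6.86 units, was thus in place at 1 h, and the later gain was 0.70 ± 0.08 (adjusted p = 1.49e-06, edgeR). Cxcl10, a chemokine for T cells, had 101 ± 5 CPM at 1 h and 155 ± 5 CPM at 5 h after 0.34 CPM at 0 h. Il23a, the p19 subunit of interleukin-23, was at 33.1 ± 2.1 and 34.8 ± 1.8 CPM, a difference not called (log2 0.07 ± 0.08, adjusted p = 0.45 by edgeR). Ccrl2, an atypical chemoattractant receptor, fell by 0.70, from 546 ± 37 to 336 ± 3 CPM.

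The 115 genes that kept rising, 0.949% of all genes tested, included 9 of the 20 tested TNF and interleukin genes. Il1b, interleukin-1 beta, was at 31.1, 37.2, 41.5 and 37.5 CPM at 1 h and at 906, 909, 948 and 934 CPM at 5 h, a log2 fold change of 4.64 ± 0.09 (adjusted p = 9.02e-17, edgeR) on top of 7.25 in the first hour. Acod1, which makes itaconate, went from 320 ± 13 to 4270 ± 81 CPM, and Ptgs2, cyclooxygenase-2, from 122 ± 12 to 1710 ± 31 CPM. Csf3, the granulocyte growth factor, was at 12.2, 15.2, 15.4 and 15.2 CPM and then at 1060, 1050, 1120 and 1080 CPM. Il6 rose from 1.78 ± 0.69 to 27.3 ± 3.7 CPM, and its 4 libraries at 1 h spread from 0.90 to 2.57 CPM. Hdc, the histidine decarboxylase that makes histamine, had the largest later rise of the class, from 0.44 to 78.1 ± 2.2 CPM. In 0 h replicate 2 several of these genes read above the other 3 libraries of that group: Acod1 was at 4.66 CPM against 1.13 to 1.27, and Csf3 at 0.891 CPM against 0 to 0.0419. Without that library 50 genes fell back and 443 rose only after 1 h.

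Chemokines and acute phase genes moved the same way. Of 16 tested chemokine ligands, 15 were called higher at 5 h and 0 lower, against 28.5% and 30.8% of all genes tested. Their median log2 fold change was 3.06. Ccl5 went from 9.37 ± 1.27 to 601 ± 29 CPM, Ccl22 from 4.10 ± 0.69 to 253 ± 16 CPM, Ccl7 from 8.53 ± 1.04 to 299 ± 15 CPM and Ccl3 from 949 ± 24 to 5880 ± 93 CPM. Of 16 tested acute phase, lectin and scavenger receptor genes, 12 were higher and 1 was lower. Saa3, a serum amyloid A protein, rose from 12.9 ± 0.7 to 427 ± 26 CPM, and Lcn2, the siderophore-binding lipocalin, from 1.55 ± 0.71 to 220 ± 12 CPM.

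Nos2 was one of the genes that rose most after 1 h without an earlier rise. This gene, the inducible nitric oxide synthase of activated macrophages, was at 0.76, 1.51, 0.92 and 1.31 CPM at 0 h and at 1.00, 1.15, 1.05 and 1.12 CPM at 1 h, where no rise was called (adjusted p = 0.93 by edgeR). At 5 h its 4 libraries read 415, 411, 394 and 350 CPM, a log2 fold change of 8.47 ± 0.11 (adjusted p = 5e-19 by edgeR). Slc7a2, a cationic amino acid transporter that supplies arginine to nitric oxide synthase, followed the same course, from 0.07 ± 0.07 CPM at 1 h to 31.3, 32.5, 33.3 and 33.9 CPM at 5 h. Il33, a cytokine of the interleukin-1 family, had 0.13, 0.05, 0 and 0 CPM at 1 h and 15.7, 16.3, 16.2 and 12.2 CPM at 5 h. Ccl17, a chemokine for Ccr4-bearing T cells, had 0 counts in all 8 libraries of 0 and 1 h and 968 counts in the 4 libraries of 5 h (12.7, 13.3, 12.4 and 12 CPM). Against a floor of 3 counts over the 1 h group it was at least 249-fold higher. Upp1, uridine phosphorylase, went from 0.87 ± 0.13 to 37.3 ± 2.8 CPM and Adamts4, an aggrecanase, from 1.22 ± 0.61 to 38.8 ± 5.0 CPM.

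The largest listed group in this class was the interferon-stimulated antiviral genes. Of 41 tested members, 40 were called higher at 5 h and 1 lower, against 28.5% and 30.8% of all genes tested. Among the 40, 38 were higher by at least 1. The median log2 fold change was 2.71, against 0.01 for 1 h over 0 h. Of the 41 members, 30 rose only after 1 h and 5 kept rising, against 3.37% and 0.949% of all genes. Irf7, the interferon regulatory factor that is itself induced by interferon, was at 2.87, 3.12, 3.48 and 4.04 CPM at 1 h and at 58.4, 57.2, 61.3 and 51.9 CPM at 5 h (log2 4.06 ± 0.10, adjusted p = 5.09e-16, edgeR). Cmpk2, a mitochondrial nucleotide kinase, went from 2.03 ± 0.94 to 96.5 ± 7.4 CPM, Ifi44 from 6.55 ± 0.48 to 119 ± 6 CPM, Oasl2 from 0.77 ± 0.41 to 34.3 ± 3.7 CPM, Mx2, a dynamin-like antiviral GTPase, from 0.26 ± 0.12 to 17.8 ± 1.6 CPM, and Zbp1, a sensor of Z-form nucleic acid, from 0.34 ± 0.22 to 19.2 ± 1.8 CPM.

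Of 22 tested interferon regulatory factor and Stat genes, a list that also holds Jak2, 6 rose only after 1 h, against 3.37% of all genes tested. Stat2 fell at first, from 28.6 to 31.9 CPM at 0 h to 19.2, 19.7, 18.3 and 20.3 CPM at 1 h (log2 -0.63, adjusted p = 3.92e-07, edgeR), and then rose to 101, 98.8, 94.4 and 94.3 CPM. Irf9, its partner in the factor that binds the ISRE, went from 14.7 ± 2.1 to 75.4 ± 2.2 CPM, and the kinase gene Jak2 from 53.8 ± 6.8 to 388 ± 9 CPM. Of the 22 genes of that list, 13 were called higher and 4 lower, with a median log2 fold change of 0.27. The message of interferon beta itself, Ifnb1, gave 9 counts over the 4 libraries at 1 h and 10 at 5 h and did not pass the filter, nor did Il10, with 2 and 6 counts. The 16 tested guanylate-binding proteins and immunity GTPases had 15 higher and 1 lower, with a median of 3.65. Some of them had already risen at 1 h and kept rising: Gbp2b was at 0.30, 1.85 and 113 CPM at the 3 times and Gbp5 at 0.32, 7.94 and 207 CPM. Their rises by 1 h were 2.54 and 4.48 on the log2 scale. Members of this family and of the Oas and Ifi families are close paralogs, between which reads may be split.

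**Figure D3:**
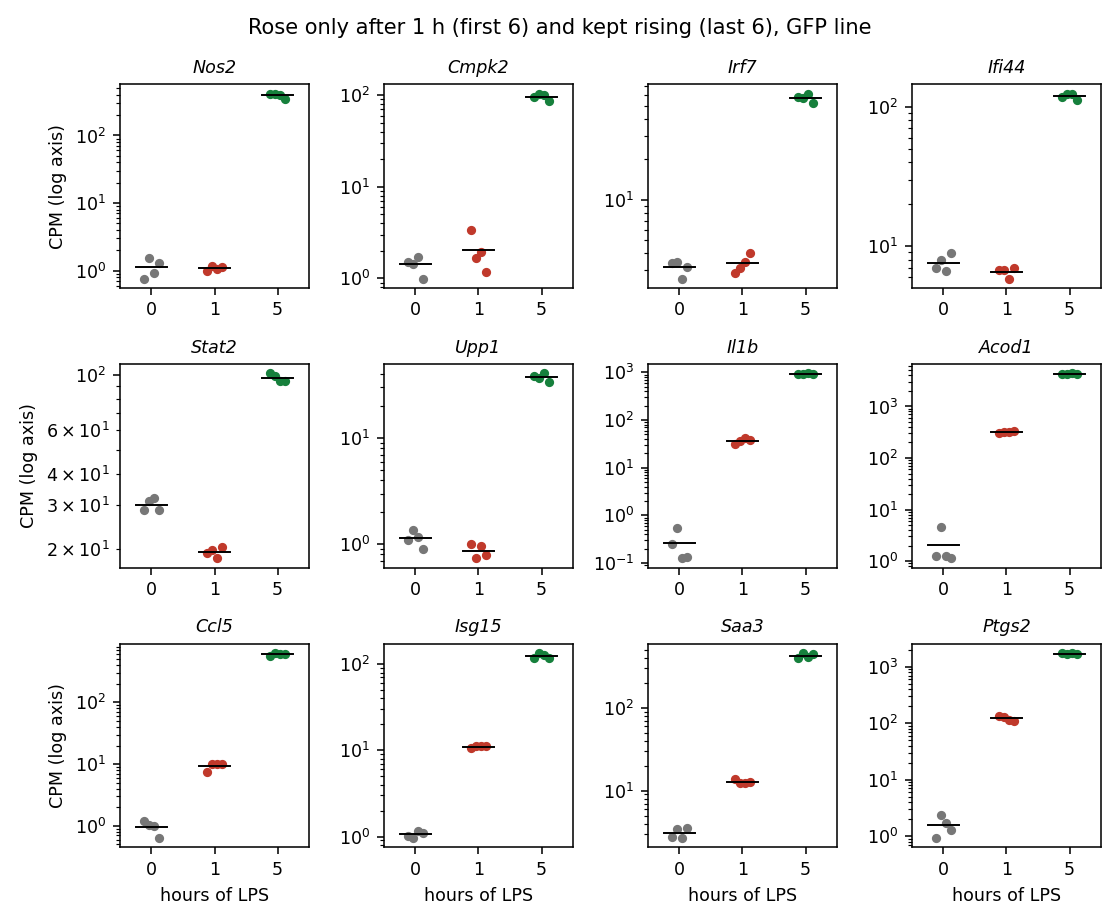
Points are the CPM of each of the 4 GFP-line libraries at 0, 1 and 5 h of LPS on log axes, and bars are group means. The first 6 genes rose only after 1 h and stay level or fall between 0 and 1 h (Nos2 near 1 CPM, Stat2 falling to about 19.4); the last 6 kept rising and step up at both times (Isg15 at 1.06, 11.1 and 125 CPM).

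The promoters of Stat2 and Ddx60, which rose only after 1 h, and of Isg15, which kept rising, are shown because each holds the ISRE core, searched as GAAA, any 2 bases and GAAA. The match is in capitals. In Stat2 it lies on the opposite strand, and in Isg15 the capitals join 3 overlapping matches. Ddx60 holds 2 matches. The gene as annotated begins at 61928073 on chromosome 8, inside this window, and the second match reaches past that start.
Stat2 promoter, chr10:128270248-128270337, plus strand: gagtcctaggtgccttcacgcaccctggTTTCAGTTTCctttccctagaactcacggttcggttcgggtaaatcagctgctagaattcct
Ddx60 promoter, chr8:61927997-61928086, plus strand: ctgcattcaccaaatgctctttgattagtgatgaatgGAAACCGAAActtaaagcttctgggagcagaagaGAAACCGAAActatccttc
Isg15 promoter, chr4:156200835-156200924, minus strand: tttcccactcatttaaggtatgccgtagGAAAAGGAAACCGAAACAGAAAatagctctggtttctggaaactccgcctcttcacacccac
Of the 9643 promoters of tested genes, 2.81% held this core within 250 bases upstream on either strand. Ddx60, an RNA helicase, was at 0.94 ± 0.58 CPM at 1 h and 23.2 ± 1.8 CPM at 5 h. Isg15, a ubiquitin-like modifier, was at 10.7, 11.2, 11.2 and 11.2 CPM at 1 h and at 119, 134, 129 and 117 CPM at 5 h. Again 307 of the 408 genes that rose only after 1 h had a promoter entry, and no class share is given.

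The late class also held genes outside inflammation. Lpl, lipoprotein lipase, rose from 453 ± 23 to 1340 ± 20 CPM, Bcl2l1, the survival factor Bcl-xL, from 69.3 ± 0.9 to 276 ± 12 CPM, and Hk2, a hexokinase, from 159 ± 7 to 325 ± 22 CPM. Of the 408 genes, 227 reached 10 CPM, and 20 had at most 3 counts over the 4 libraries of 1 h. In 23 of them the fitted rise at 1 h was at least 1 but was not called, so that an early start cannot be told from its absence at this depth. Il12b was one of these, at 0.08 ± 0.06 CPM at 1 h and 2.72 ± 0.67 CPM at 5 h. Another 15 were, like Stat2, called lower at 1 h than at 0 h, as were 9.45% of all genes. At a threshold of 2 on the log2 scale, 161 genes rose only after 1 h.

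Genes of several kinds fell only after 1 h. St6gal1, a sialyltransferase, was at 74.1, 75.9, 71.3 and 77.5 CPM at 1 h and at 3.88, 5.06, 3.80 and 3.61 CPM at 5 h (log2 -4.17 ± 0.09, adjusted p = 1.03e-16, edgeR), having been at 68.8 ± 5.2 CPM at 0 h. Cytip, a cytohesin regulator, fell from 38.1 ± 3.6 to 3.11 ± 0.94 CPM, Trp53inp1 from 34.9 ± 5.8 to 3.93 ± 0.67 CPM and Tfeb, the master factor of lysosome genes, from 16.1 ± 2.0 to 2.84 ± 0.48 CPM. Mef2c, a myeloid transcription factor, went from 233 ± 25 to 64.1 ± 2.0 CPM. Of the 525 genes, 8 had been called higher at 1 h (12.2% of all genes were), among them Fos, Fosb and Arc.

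Both cell cycle lists were lower almost throughout, while 30.8% of all genes tested were called lower and 28.5% higher. Of 36 tested genes of G1/S and DNA replication, 32 were called lower and 3 higher, 13 of them lower by at least 1, with a median of -0.79. Mcm6, a subunit of the replicative helicase, was at 196, 204, 217 and 211 CPM at 1 h and at 93.5, 95.1, 89.3 and 88.5 CPM at 5 h, and the cyclin gene Ccnd1 went from 406 ± 4 to 152 ± 5 CPM. Of 35 tested genes of G2/M and mitosis 34 were lower and 0 higher, 4 by at least 1, with a median of -0.71. In the other direction, 19 of 30 ribosome biogenesis genes and 17 of 29 proteasome subunit genes were higher, with medians of 0.26 and 0.15, and 24 of 26 antigen presentation and costimulation genes were higher. In bulk RNA, fewer cells in a state and less RNA per cell cannot be told apart.

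**Figure D4:**
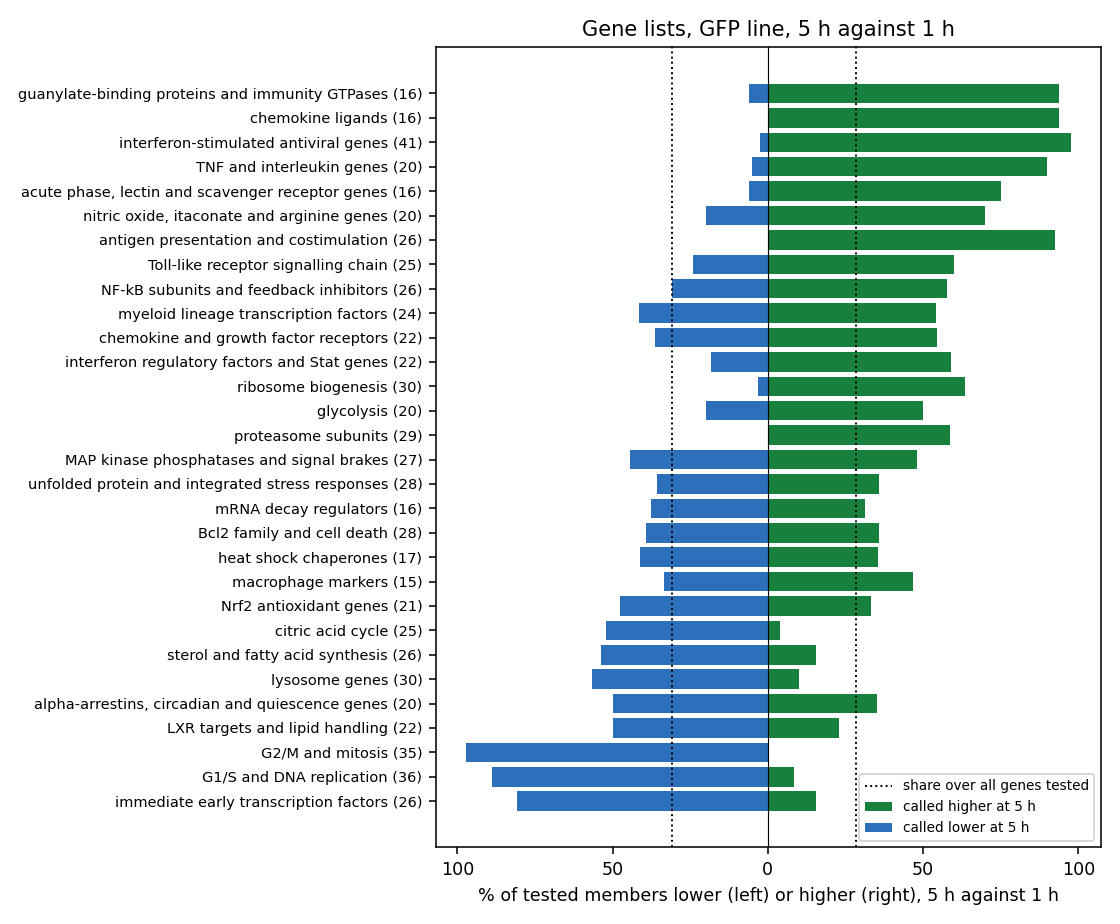
For each gene list, with the number of tested members in brackets, the bar to the right gives the percentage of members called higher at 5 h than at 1 h in the GFP line and the bar to the left the percentage called lower; dotted lines mark 28.5% and 30.8% over all genes tested. Interferon-stimulated genes, chemokines and guanylate-binding proteins stand at the upper end, and the cell cycle lists and immediate early transcription factors at the lower end.

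Among the metabolic lists, the citric acid cycle had 1 of 25 higher and 13 lower, sterol and fatty acid synthesis 4 of 26 and 14, and lysosome genes 3 of 30 and 17. The median log2 fold changes of these 3 lists were small, at -0.13, -0.17 and -0.21. Idh1, the cytosolic isocitrate dehydrogenase, went from 155 ± 4 to 63.5 ± 1.2 CPM. It was the 1 gene of the citric acid cycle list that was lower by at least 1. The cholesterol synthesis gene Dhcr7 went from 43.0 ± 1.8 to 16.6 ± 1.1 CPM. Glycolysis had 10 of 20 higher and 4 lower. The heat shock, unfolded protein, Nrf2, mRNA decay and Bcl2 family lists had members called in both directions. The numbers higher and lower were 6 and 7 of 17, 10 and 10 of 28, 7 and 10 of 21, 5 and 6 of 16, and 10 and 11 of 28. Over all genes tested, 28.5% were higher and 30.8% lower.

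Of the 29 genes that dipped and recovered, 6 reached 10 CPM, and 4 of those 6 were zinc finger genes of the Zfp series. Hhex, a homeobox factor of blood development, was at 51.5 ± 3.7 CPM at 0 h, at 17.4, 20.9, 20.9 and 20.4 CPM at 1 h and at 44.0, 44.2, 46.6 and 52.1 CPM at 5 h. Mylip, a ubiquitin ligase for the LDL receptor, went from 15.3 to 6.47 and then to 22.2 ± 1.4 CPM. Of all 29, 20 were not called different from 0 h at 5 h, Hhex among them.

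The classes differed in gene structure, which the rules did not use. Genes that fell back spanned a median of 8350 bases on the genome with 4 exons, against 20012 bases and 9 exons over all tested genes. Those that kept rising spanned 10481 bases and those that held 12843 bases. Genes that rose only after 1 h were near the median of all genes, at 21783 bases, and those that fell only after 1 h were longer, at 31359 bases. In the 3′ untranslated region, where AU-rich elements mark messages for decay, 23 of 47 genes that fell back (48.9%) held the core TATTTAT. The share was 55.0% of the genes that held, 38.7% of those that kept rising and 26.9% of those that rose only after 1 h, against 27.5% of all tested genes with a region annotated. Median region lengths were 1274, 1000, 731 and 952 bases in those classes and 964 bases over all tested genes, so length differed as well. These are descriptions with no test.

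Stretches of 28 bases with the most AU-rich motifs are shown for 3 genes that fell back and for Tnf, which held, from GENCODE transcripts with GRCm38 coordinates and ATTTA in capitals.
Dusp1 3′ UTR, chr17:26506167-26506194, minus strand: ctcatgggagctggtccttATTTATTTA
Jun 3′ UTR, chr4:95049090-95049117, minus strand: aagatgacctttgcttgtgcatATTTAt
Zfp36 3′ UTR, chr7:28376962-28376989, minus strand: gccctttATTTAtgacgactttATTTAt
Tnf 3′ UTR, chr17:35199679-35199706, minus strand: tATTTAttATTTATTTAttATTTATTTA
The whole region held 4 ATTTA motifs in Dusp1, 4 in Jun, 3 in Zfp36 and 8 in Tnf.

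**Figure D5:**
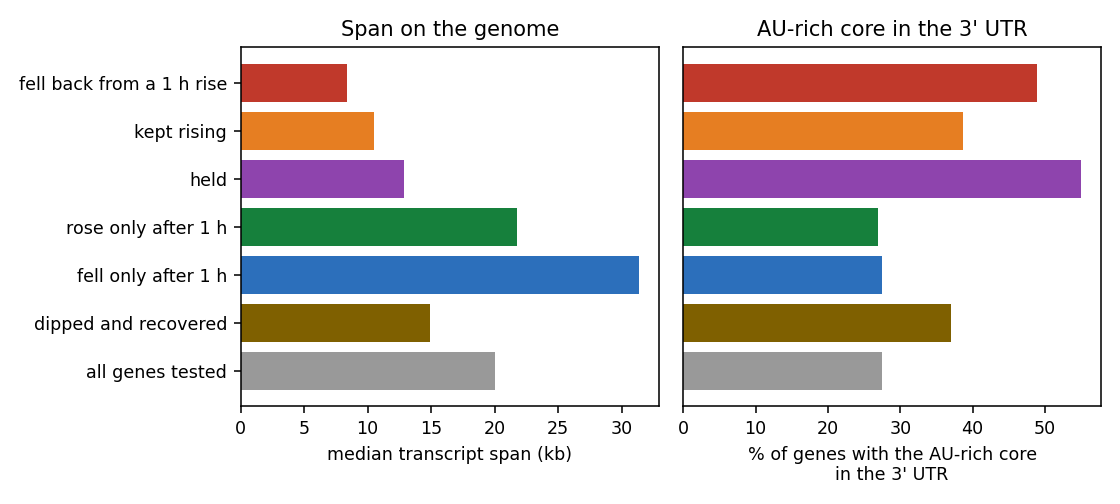
Bars give, for each class of genes in the GFP line and for all genes tested, the median span of the transcript on the genome in kilobases (left) and the percentage of genes with an annotated 3′ untranslated region that hold the AU-rich core (right). The 3 classes induced at 1 h have short spans (8350 to 12843 bases), and the core was found in 48.9% of genes that fell back and 55.0% of those that held.

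The Nur77 line gave an independent set of libraries in which to look at the same genes. Its 1 h replicate 2 stood apart from the other 3 of its group on the first principal component, at 10.1 against -14.7 to -12.4, so values are given with and without it. In that line 27.0% of genes were called lower and 24.8% higher at 5 h than at 1 h (29.6% and 29.0% without the library). Of 50 tested genes that fell back in the GFP line, 46 were called lower in the Nur77 line and 0 higher, with a median of -1.65; without the library the count was 46 of 51. Of 353 tested genes that rose only after 1 h, 308 were called higher and 1 lower (331 and 1 of 358 without it). Of 107 that kept rising 103 were higher (107 of 108 without it), and of 457 that fell only after 1 h 430 were lower (442 of 463 without it). The 1 late gene that was lower was Chd5, a chromatin remodeller.

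With all 12 Nur77-line libraries, 4 genes that fell back in the GFP line were tested but not called. These were Cd300ld3, Gm614, Klf2, a Krüppel-like factor, and Rhob, a small GTPase. Without 1 h replicate 2, Epha1 was tested as well and was also not called (log2 -0.51, adjusted p = 0.234 by edgeR). All were named after their values were seen. Klf2 was at 35.1, 45.8, 46.4 and 44.3 CPM at 1 h and at 17.4, 20.0, 19.2 and 18.9 CPM at 5 h in the GFP line (log2 -1.19), against a log2 fold change of 0.17 in the Nur77 line without 1 h replicate 2. The difference between the lines was -1.35 ± 0.13 over 23 libraries (adjusted p = 3.24e-08, edgeR) and -1.17 over all 24 (adjusted p = 5.56e-05, edgeR). Rhob had log2 fold changes of -1.08 in the GFP line and -0.03 in the Nur77 line without that library, a difference of -1.03 ± 0.11 (adjusted p = 1.69e-07, edgeR). Over all genes, 10.2% differed between the lines in this comparison at that threshold (6.55% with all 24 libraries), and 24 of the 51 that fell back did (12 with all 24 libraries). Other classes shared this. Over 23 libraries, the lines differed for 56 of 115 genes that kept rising and 50 of 154 that held. They differed for 105 of 406 that rose only after 1 h and 92 of 519 that fell only after 1 h. The classes were chosen in the GFP line, so these counts are a description. Nr4a1 is the gene induced in the Nur77 line. It is 1 of the 51 genes that fell back and enters the counts of that class given for the Nur77 line and for the difference, but its values there are not compared singly.

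The identity of the cells and the libraries was checked once over the line. The 15 macrophage markers summed to 15400 to 16300 CPM at 1 h and 17600 to 18400 CPM at 5 h. All 8 epithelial markers were at 0, lymphocyte markers summed to at most 0.443 CPM at 1 and 5 h, and neutrophil markers to at most 4.13 CPM. Fibroblast markers summed to 0.125 to 0.523 CPM at 1 h and 2.71 to 3.96 CPM at 5 h, the latter mostly Pdgfrb at 2.96 CPM, with Col1a2, Col3a1, Lum and Thy1 at 0. Library totals at 1 h and 5 h ran from 8134143 to 25079443 counts, and replicates correlated at 0.9877 to 0.9953 within groups.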

How the data were processed

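RNA sequencing libraries of RAW 264.7 cells, 4 per group, were read from the table of estimated counts per transcript that the authors deposited; its values are multiples of 0.5 and were rounded. Per the submitters' processing notes, the tools were CASAVA 1.8.2 and HISAT2 2.1.0 and the build was mm10. No counting tool, annotation or strand setting is given in the sources used here, so overlapping antisense genes cannot be told apart. Of 42361 transcripts, 42203 were matched to RefSeq (GRCm38.p6) and 65 to GENCODE, and 93 stayed unmatched with 0.496% of counts. Transcripts of 1 gene often carried similar counts (median ratio of second to first 0.992 over 5011 genes), so the highest was used.

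edgeR 4.0.16 (filterByExpr, TMM, robust quasi-likelihood) was fitted to the 12 GFP-line libraries with 3 group means and 9 residual degrees of freedom, and separately to the 12 Nur77-line libraries. Standard errors are the log2 fold change over the root of F. Benjamini-Hochberg adjustment ran over all genes tested. On simulated counts for 5 h against 1 h, 100% of 200 genes changed by log2 1 or 2 were recovered, and 14 unchanged genes were called. The changed genes were drawn only from well-counted genes, and every gene had the same low dispersion. Recovery was therefore easy, and the simulation cannot speak for genes with low counts. CPM use TMM-scaled library sizes. The difference between the lines was fitted over both lines, a test added after seeing the data.

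Named genes were a fixed panel, those with the largest changes, the most changed of each class, and up to 4 of each list with the smallest adjusted p at 5 h against 1 h. The largest changes and class picks had to reach 10 CPM in the higher group. Their libraries at 5 h and 1 h (1 h and 0 h for held genes) also had to be free of overlap. The clean separation of those genes was thus a condition for naming them. Any other gene is said to be so where named. The members, lists and rules were chosen with earlier results of these data known. Alternatives were DESeq2 1.42.0 (test and size factors), filters, mean over transcripts, the libraries fitted, a threshold of 2, a replicate block and leaving out each library. Replicate numbers do not pair the libraries.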

Additional observations from a re-analysis of the deposited data

Results flagged for a closer look

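For 87 genes named in the text, each group of 4 GFP-line libraries was searched for a library far from the other 3, 261 groups in all, of which chance flags about 1 in 20; 18 were found. At 0 h, replicate 2 was high for Acod1 (4.66 CPM against 1.13 to 1.27) and Csf3 (0.891 against 0 to 0.0419), replicate 3 was high for Dusp5 (7.13 against 5.70 to 5.90) and low for Tnfsf9 (22.1 against 26.1 to 26.7), and replicate 4 was high for Jun (67.8 against 58.5 to 59.9), Ppp1r15a (46.0 against 37.5 to 38.7) and Sowahc (16 against 11 to 11.7). At 1 h, replicate 1 was low for Ccl5 (7.47 against 9.92 to 10.1), Csf3 (12.2 against 15.2 to 15.4), Hhex (17.4 against 20.4 to 20.9) and Isg15 (10.7 against 11.2) and high for Saa3 (14 against 12.4 to 12.6). Replicate 3 of that time was low for Gem (23.2 against 25 to 25.3) and Ifi44 (5.84 against 6.73 to 6.90). At 5 h, replicate 1 was low for Dusp1 (8.20 against 9.16 to 9.30), replicate 2 high for Gbp5 (226 against 200 to 202) and replicate 4 low for Il33 (12.2 against 15.7 to 16.3) and Nr4a1 (2.07 against 3.07 to 3.10).

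The GFP and Nur77 lines were compared by an interaction test in edgeR over 23 libraries, with Nur77 1 h replicate 2 left out. Nr4a1 aside, the change from 1 h to 5 h differed by at least 1 on the log2 scale for 16 of these genes. As GFP minus Nur77, the difference was -1.35 for Klf2, -1.03 for Rhob and -1.13 for Jun, all of which fell back, and 1.5 for Gem, which fell further in the Nur77 line. It was 3.49 for Slc7a2, 2.13 for Chd5, 1.99 for Gbp5, 1.48 for Adamts4, 1.41 for Gbp2b, 1.31 for Lcn2, 1.22 for Ccl5, 1.07 for Ccl22 and 1.13 for St6gal1. Il6 (-2.42), Nos2 (-1.85) and Ifi44 (-1.01) rose more in the Nur77 line. With all 24 libraries 6 of the 16 were not called by that test: Il6 was at -0.68 (adjusted p = 0.569), Nos2 at 0.05 (0.992), Ifi44 at -0.70 (0.109), Gem at 1.27 (0.0613), Lcn2 at 3.79 (0.0522) and St6gal1 at 0.76 (0.683).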

How the results depend on the processing

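A threshold of 2 on the log2 scale left 20 genes that fell back and 161 that rose only after 1 h, as its construction requires. Under the other alternatives both counts stayed within 1.5 times of 51 and 408: 48 to 52 genes fell back, and 364 (a filter of 1 CPM in 4 libraries) to 539 (no filter) rose only after 1 h. Leaving out each library in turn gave 3218 to 3669 genes higher and 3469 to 3888 lower at 5 h than at 1 h in the GFP line, and 2551 to 3429 and 2870 to 3507 in the Nur77 line. DESeq2's Wald test gave 3562 and 3552. Replicate numbers did not pair the libraries (same-numbered GFP-line libraries correlated at -0.267 to 0.101 in their deviations from the group means); with the replicate block, 3336 genes were higher and 3624 lower, 50 fell back and 420 rose only after 1 h, and the Nur77 line gave 2791 and 2987. Of 166 genes followed through 3652 values, 164 kept direction and call in all of them and none reversed; Mir155hg lost its call in 12 and Sele in 1. The fits without Nur77 1 h replicate 2 and without 1 unusually abundant unmatched transcript were chosen after seeing the data. Of the 408 late genes, 20 had at most 3 counts over the 1 h libraries, where depth limits the fold change.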
